A study of Homo sapiens with 8 samples.

Results

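The genes described here are 8 sialyltransferases, ST3GAL1, ST3GAL2, ST3GAL3, ST3GAL4, ST3GAL5, ST3GAL6, ST6GAL1 and ST8SIA4, together with ST3GAL6-AS1, the antisense transcript of ST3GAL6. They were chosen by symbol, with earlier results of these data known, and make up 9 of the 63677 genes counted. RNA was sequenced from JJN3 and H929, cell lines grown from multiple myeloma (MM), a cancer of plasma cells. Cells received THZ1, a covalent inhibitor of the transcription kinase CDK7, at 50 nM or its vehicle DMSO, and RNA was taken after 24 h. Each line and treatment had 2 libraries, which makes 8. Each line stands for a single tumour, but the libraries labelled H929 differed in more than treatment, as given below. No source used here says whether the replicate libraries came from separate cultures, so the p-values measure the spread between these libraries, which may be technical. The study asked with this experiment how myeloma gene expression responds to CDK7 inhibition, and ST3GAL6 was among the genes it linked to a superenhancer, a dense cluster of active enhancers.

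Sialyltransferases are Golgi enzymes that move sialic acid from CMP-sialic acid onto the ends of the glycans of glycoproteins and glycolipids. The ST3GAL enzymes attach it to galactose in an α2,3 linkage, ST6GAL1 attaches it to galactose in an α2,6 linkage, and the ST8SIA enzymes attach it to another sialic acid in an α2,8 linkage. Sialylated and fucosylated glycans such as sialyl Lewis X are ligands of the selectins, through which blood cells and myeloma cells roll on bone marrow endothelium, and ST3GAL4 and ST3GAL6 are known for their part in making them.

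Libraries held 17476443 to 19194371 counts in total, and all 9 genes had at least 37 counts in every library. At this depth 3 counts, the most that would be missed where 0 were seen, came to 0.156 to 0.172 CPM (counts scaled to the library total), which covers counting error only. The 4 JJN3 libraries resembled each other, with correlations of log2 CPM across genes of 0.966 to 0.972 between DMSO and THZ1 and of 0.989 to 0.995 between the replicates of all 4 groups. In the libraries labelled H929 the correlation between DMSO and THZ1 was 0.777 to 0.812, as low as between libraries of the 2 line labels (0.772 to 0.814). In the JJN3 libraries 0.244% to 0.369% of light chain V counts were on lambda genes. The libraries labelled H929 DMSO carried 100% and 98.0% of their light chain V counts on lambda genes, and those labelled H929 THZ1 carried 0.203% and 0.194%. FGFR3, which is switched on by the t(4;14) translocation that H929 is known for, had 45 and 285 counts in the former and 14117 and 13411 in the latter. WHSC1, the other t(4;14) gene looked at, differed less between these labels, with means of 370 and 842 CPM. In JJN3 with DMSO its mean was 167 CPM. The 2 H929 labels therefore differed in more than treatment. MAF, a transcription factor gene that the study describes as active in both lines, was lower under the THZ1 label in both. Its means with DMSO and THZ1 were 853 and 559 CPM in JJN3, and 936 and 149 CPM under the H929 labels. Its log2 fold changes were -0.59 (standard error 0.093) in JJN3 and -2.64 (standard error 0.064) in the libraries labelled H929. As JJN3 minus H929 these differed by 2.04 (standard error 0.107). Any response to THZ1 and whatever else separates the 2 H929 labels are mixed in a difference between them. These cannot be told apart. The phrase "libraries labelled H929" is used for this reason. Values for JJN3 were fitted on the 4 JJN3 libraries alone.

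Of the 8 plasma cell markers found, such as SDC1, XBP1 and PRDM1, all 8 were above 3 counts in every JJN3 library and every library labelled H929 THZ1, and 7 in those labelled H929 DMSO, where SLAMF7 had 2 and 174 counts. Their summed level was 3880 to 4089 CPM in JJN3, 3041 to 3244 CPM in the libraries labelled H929 DMSO and 11628 to 11630 CPM in those labelled H929 THZ1. The summed levels of 3 mature B cell markers, 3 myeloid markers and 2 fibroblast markers were at most 3.94, 1.08 and 4.50 CPM in any library. The 3 T cell markers summed to at most 4.70 CPM, apart from 33.9 and 34.6 CPM in the libraries labelled H929 THZ1, where CD3E held 640 and 650 counts and CD3D 0. Of the 2 epithelial markers, KRT19 had at most 1 count in any library, and EPCAM had 1195 to 2391 counts in JJN3 and the libraries labelled H929 DMSO against 1 and 6 in those labelled H929 THZ1. The part of these differences in the results for the libraries labelled H929 was not tested. In bulk RNA, fewer cells of a type and less RNA per cell cannot be told apart.

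ST3GAL6 makes the α2,3-sialylated galactose ends of selectin ligands and is the member the study followed. In the GRCh37 annotation it spans chr3:98451080-98540045 on the plus strand, and ST3GAL6-AS1 spans chr3:98425080-98451601 on the minus strand, so the genes share 522 bp at their starts and 174 exon bases. The 3 guides that the study used to bring dCas9-KRAB, a repressor of transcription, to this locus are shown because they mark the regulatory region it assigned to ST3GAL6. Each guide matched GRCh37 at a single place, on the plus strand. The guide is in lower case and the PAM that follows it in the genome is in capitals.
sgST3GAL6-1: tcgcggtgattttccggtccCGG
sgST3GAL6-2: tttgaacctcgtaactcttcGGG
sgST3GAL6-3: aacttgactgtcgtataatcAGG
The guides lie at chr3:98451311-98451330, chr3:98452910-98452929 and chr3:98454800-98454819, with their middles 240, 1839 and 3729 bp inside ST3GAL6. The first lies in an exon of both ST3GAL6 and ST3GAL6-AS1, and the others in introns of ST3GAL6. None of the 8 libraries came from cells with these guides.

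The first guide also falls inside 1 of the 4 RefSeq promoter windows of ST3GAL6 (GRCh38.p14, chr3:98732451-98732750, plus strand), which is printed with the guide in capitals to show what sequence the divergent pair of genes starts from. The RefSeq promoter window of ST3GAL6-AS1 on the opposite strand shares 149 of its 300 bases. A RefSeq promoter was at hand for 7 of the 9 genes.
ST3GAL6 promoter window: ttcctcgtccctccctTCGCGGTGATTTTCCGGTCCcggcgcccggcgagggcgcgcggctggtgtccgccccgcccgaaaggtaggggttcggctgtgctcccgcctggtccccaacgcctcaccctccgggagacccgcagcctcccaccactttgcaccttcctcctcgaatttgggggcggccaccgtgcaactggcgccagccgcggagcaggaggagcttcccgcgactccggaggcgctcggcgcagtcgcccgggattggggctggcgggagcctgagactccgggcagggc
The primer pair with which the study measured ST3GAL6 by qRT-PCR shows which transcripts such an assay reads. Both primers match 8 of the 27 annotated ST3GAL6 transcripts and span 142 bases in each, while the counts here take in all exons of the gene.
Forward primer: ctgacctcaagagtcctttgcac
Reverse primer: tcttgagtcaagttgattacgagg

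In JJN3, ST3GAL6 and ST3GAL5 rose with THZ1, ST6GAL1, ST3GAL4 and ST3GAL3 fell, and ST3GAL1, ST3GAL2, ST8SIA4 and ST3GAL6-AS1 did not pass the thresholds, an adjusted p under 0.05 with a log2 fold change beyond 0.5. All 9 genes passed the filter on low counts. The 2 genes higher stand beside 20.6% of all 13984 genes tested in this comparison, and the 3 lower beside 21.3%. The median log2 fold change was -0.26 over the 9 genes and -0.0004 over all genes tested. TMM scaling sets levels relative to the other transcripts of a library, so rises and falls here are relative. A change in total mRNA per cell would not be seen.

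**Figure D1:**
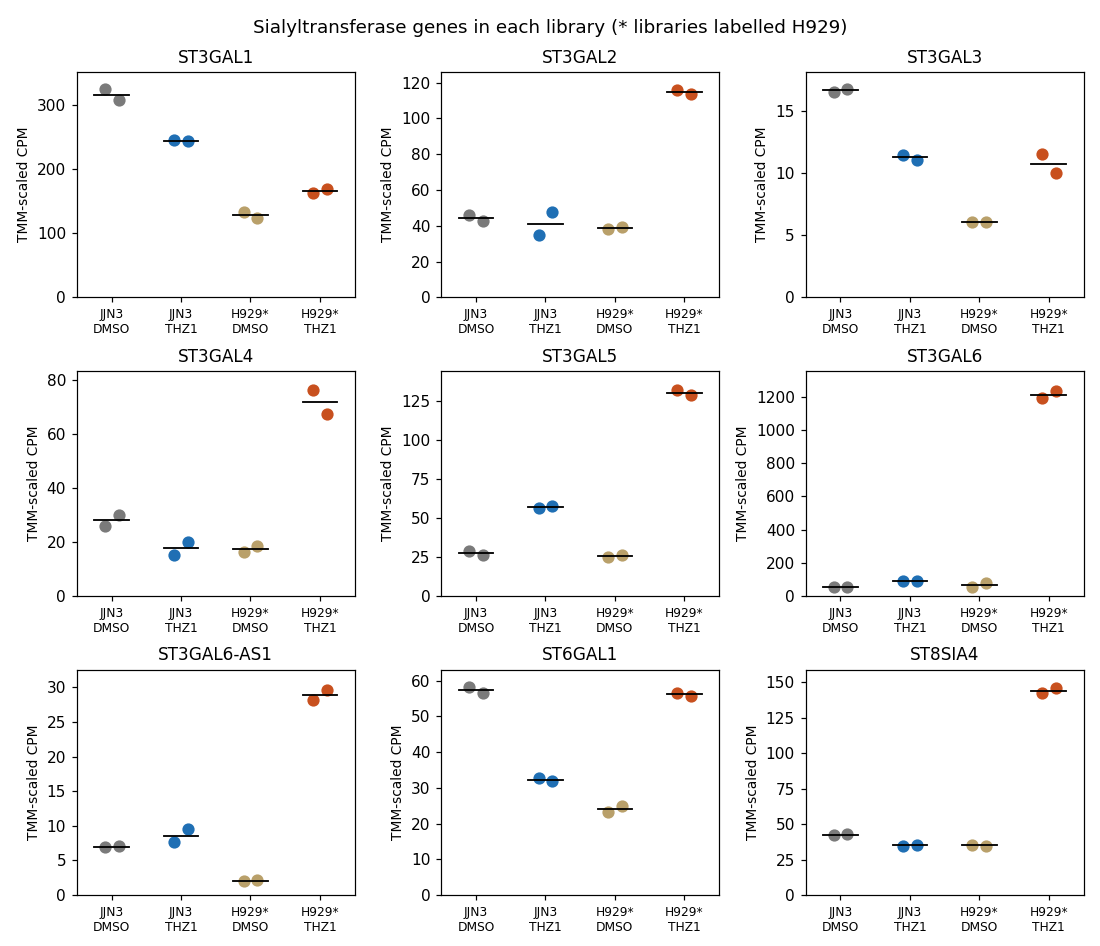
TMM-scaled CPM (vertical axis, from 0, a separate scale for each gene) of the 9 genes in each of the 8 libraries. Points are libraries, bars are the means of 2, and the asterisk marks the libraries labelled H929, where ST3GAL6 lies at 1189 and 1232 CPM in the THZ1 libraries against 57.4 and 79.0 in the DMSO libraries.

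In JJN3 the counts of ST3GAL6 were 1068 and 1098 in the vehicle libraries and 1458 and 1695 in the treated ones. After TMM scaling for library composition these were 55.2 and 56.2 CPM with DMSO and 89.1 and 94.2 CPM with THZ1, so both THZ1 libraries lay above both DMSO libraries. This was a 1.66-fold rise, or 0.73 on the log2 scale (standard error 0.081, adjusted p = 2.12e-05). It kept its direction and its call without any 1 of the 4 libraries, at 0.69 to 0.77. By qRT-PCR the study reported the opposite direction, a significant fall of ST3GAL6 with THZ1 in JJN3 and H929. That assay used a lower dose of THZ1 than the libraries here and was normalised to GAPDH. Its primers match only some of the annotated transcripts, among them a protein-coding one of the canonical transcript's length, 3198 bases. The part of dose, scaling and assay in this difference was not tested.

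ST3GAL5, the GM3 synthase that makes the first ganglioside from lactosylceramide, had the largest rise of the 9 in JJN3. Its level was 29.0 and 26.2 CPM with DMSO and 56.3 and 57.6 CPM with THZ1. This was a 2.09-fold rise, or 1.06 on the log2 scale (standard error 0.092, adjusted p = 4.82e-06), with no overlap between the groups.

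ST6GAL1 sialylates N-glycans in the α2,6 linkage, also on antibodies, and had the largest fall. Its level was 58.3 and 56.5 CPM with DMSO and 32.6 and 32.0 CPM with THZ1, again with no overlap. On the log2 scale this was -0.81 (standard error 0.086, adjusted p = 1.63e-05), which leaves 0.569 of the level with DMSO.

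ST3GAL4 and ST3GAL3, which like ST3GAL6 sialylate the galactose of N-acetyllactosamine chains, both fell. ST3GAL4 had 26.0 and 30.1 CPM with DMSO and 15.4 and 20.2 CPM with THZ1 (log2 fold change -0.63, standard error 0.141, adjusted p = 0.0026). The groups did not overlap, but without THZ1 replicate 1 the value was -0.46 and was no longer called. ST3GAL3 had 16.6 and 16.7 CPM with DMSO and 11.5 and 11.1 CPM with THZ1 (log2 fold change -0.55, standard error 0.124, adjusted p = 0.00295), a value close to the threshold for the fold change.

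ST3GAL1 and ST3GAL2 sialylate the galactose of core 1 O-glycans, and ST3GAL2 also gangliosides. ST3GAL1 had 324 and 307 CPM with DMSO and 245 and 243 CPM with THZ1 (log2 fold change -0.35, standard error 0.081, adjusted p = 0.00314), lower in both THZ1 libraries but within the threshold for the fold change. ST3GAL2 had 46.1 and 42.6 CPM with DMSO and 34.6 and 47.6 CPM with THZ1, and its groups overlapped (log2 fold change -0.09, 95% interval -0.35 to 0.17). Its sign turned when THZ1 replicate 1 was left out (0.12). ST8SIA4, 1 of the 2 polysialyltransferases, which build long α2,8 chains on NCAM1 and a few other carriers, had 42.0 and 43.3 CPM with DMSO and 34.8 and 35.4 CPM with THZ1 (log2 fold change -0.26, standard error 0.089, adjusted p = 0.024).

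In JJN3 the counts of ST3GAL6-AS1 were 133 and 139 in the vehicle libraries and 125 and 171 in the treated ones, or 6.88 and 7.12 against 7.64 and 9.50 CPM. Both THZ1 values were above both DMSO values, but the difference did not pass the test (log2 fold change 0.31, 95% interval -0.03 to 0.65, adjusted p = 0.141). For every 100 counts on ST3GAL6 there were 12.5 and 12.7 on the antisense gene with DMSO and 8.57 and 10.1 with THZ1. Whether counting used the strand is not given in the sources used here, so reads in the stretch where the pair overlaps, 2.76% of the exon bases of ST3GAL6, could have been lost or given to either gene.

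The libraries labelled H929 gave another picture: 8 of the 9 genes were higher under the THZ1 label than under the DMSO label, and the ninth, ST3GAL1, was within the threshold. This stands beside 33.1% of all 14863 genes tested that were higher in the same comparison. The median log2 fold change was 2.04 over the 9 genes and 0.01 over all genes tested. These differences were between libraries of the identity described above, not between treatments alone.

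The counts of ST3GAL6 were 1067 and 1426 in the DMSO-labelled libraries and reached 22635 and 23340 in the THZ1-labelled ones. The levels were 57.4 and 79.0 CPM against 1189 and 1232 CPM, a log2 fold change of 4.16 (standard error 0.106, adjusted p = 9.44e-15), or 17.8-fold. It was the largest difference of the 9, and ranked 1045 from the top of the 14863 genes tested by log2 fold change. ST3GAL6-AS1 followed, at 1.99 and 2.16 CPM against 28.2 and 29.7 CPM (log2 fold change 3.80, standard error 0.142). Per 100 counts of ST3GAL6 the DMSO-labelled libraries held 3.47 and 2.74 antisense counts and the THZ1-labelled ones 2.37 and 2.41, fewer than in any JJN3 library. The stretch shared by the pair is 2.76% of the exon bases of ST3GAL6, and which gene its reads went to is not known here. The part of such reads in the antisense counts was not tested.

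The 2 libraries labelled H929 DMSO differed from each other in ST3GAL6 by 21.6 CPM, or 1.78% of the mean THZ1 level of 1210 CPM. A group of genes chosen after their values were seen gives the same measure elsewhere. There were 48 genes with at most 2 counts in DMSO replicate 1 and a mean of at least 1000 counts under the THZ1 label. In DMSO replicate 2 all 48 were above 0, at a median of 2.07% of their THZ1 level (quartiles 1.96% and 2.27%). CD44 was one of them, with 2 counts in replicate 1, 305 in replicate 2 and 14927 and 15298 under the THZ1 label. The part of this in the ST3GAL6 values was not tested. Without DMSO replicate 2 the log2 fold change of ST3GAL6 was 4.42, and without DMSO replicate 1 it was 3.93. The same gap for the other 8 genes ran from -5.44% of the THZ1 level for ST3GAL1 to 3.30% for ST6GAL1.

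**Figure D2:**
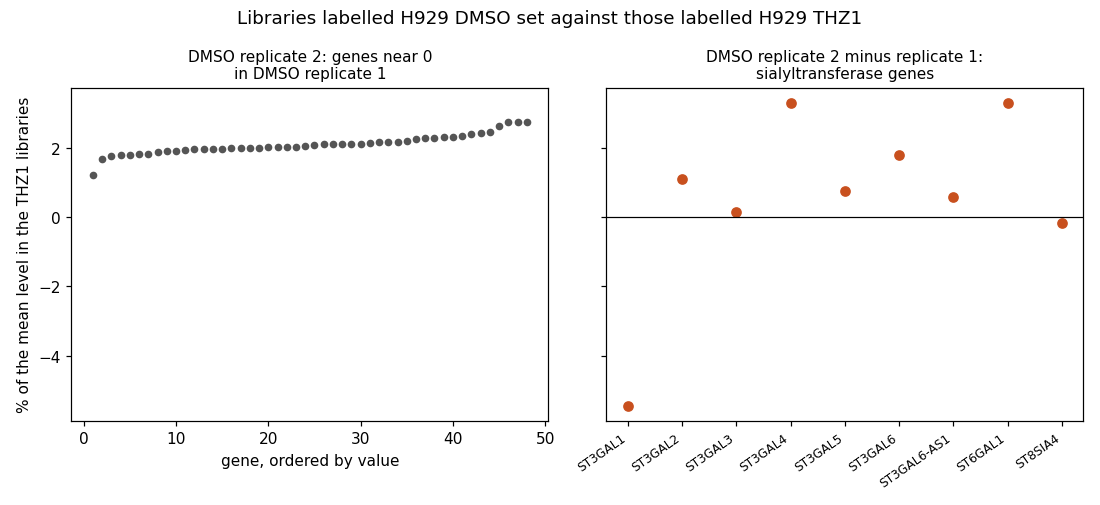
Left, the level in DMSO replicate 2 labelled H929, as a percent of the mean level under the THZ1 label, of the 48 genes with at most 2 counts in DMSO replicate 1, one point a gene, with a median of 2.07%. Right, the gap between DMSO replicates 2 and 1 for each of the 9 genes on the same scale, 1.78% for ST3GAL6 and -5.44% for ST3GAL1.

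Among the other α2,3 enzymes under the H929 labels, ST3GAL5 had 25.2 and 26.1 CPM with the DMSO label and 132 and 129 CPM with the THZ1 label (log2 fold change 2.35, standard error 0.065). ST3GAL4 had 16.3 and 18.7 against 76.4 and 67.5 CPM (2.04, standard error 0.090), and ST3GAL2 had 38.3 and 39.6 against 116 and 114 CPM (1.57, standard error 0.062). These 3 were higher under the THZ1 label by 2.96-fold to 5.11-fold. ST3GAL3 had 6.08 and 6.09 against 11.5 and 9.97 CPM (0.82, standard error 0.145). ST3GAL1 had 132 and 123 against 163 and 169 CPM, a log2 fold change of 0.38 (standard error 0.056, adjusted p = 1.11e-05) within the threshold for the fold change. It is the gene of the 9 with the smallest difference between these labels.

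ST6GAL1, which fell in JJN3, had 23.1 and 24.97 CPM under the DMSO label and 56.5 and 55.8 CPM under the THZ1 label (log2 fold change 1.23, standard error 0.077). ST8SIA4 had 35.1 and 34.8 against 142 and 146 CPM (2.05, standard error 0.061). The adjusted p-values of the 8 genes called ran from 9.44e-15 for ST3GAL6 to 7.14e-05 for ST3GAL3.

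**Figure D3:**
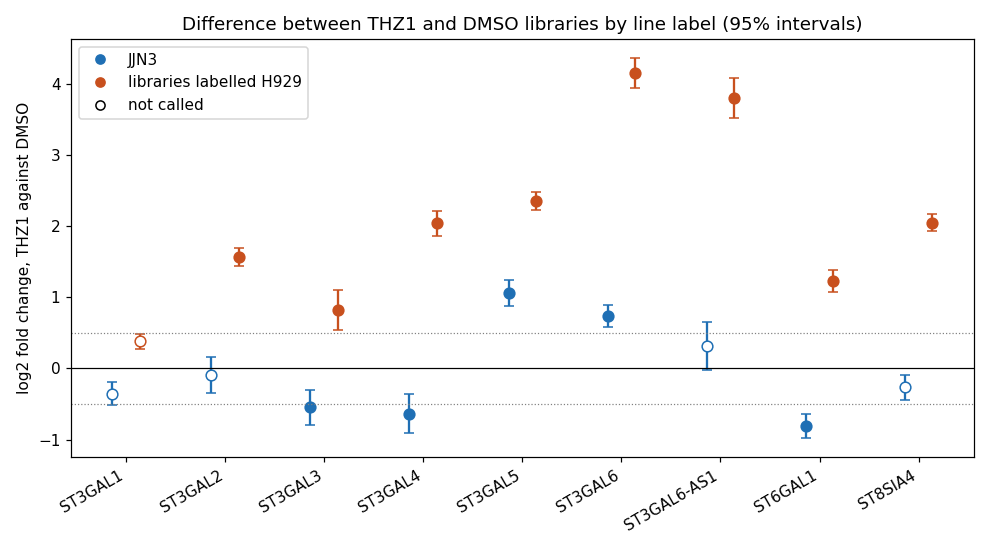
Log2 fold change of THZ1 against DMSO libraries (vertical axis) for the 9 genes, separately for JJN3 and the libraries labelled H929, with 95% intervals. Filled points passed both thresholds, dotted lines mark log2 fold changes of -0.5 and 0.5, and each H929 value lies above the JJN3 value of the same gene.

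The difference between the lines was tested itself, as JJN3 minus the libraries labelled H929. All 9 genes were lower in that contrast, beside 28.1% of all 16122 genes tested. The difference was -3.50 (standard error 0.225) for ST3GAL6-AS1 and -3.43 (standard error 0.154) for ST3GAL6, and smallest for ST3GAL1 at -0.74 (standard error 0.096). The adjusted p-values lay between 2.44e-11 for ST8SIA4 and 6.98e-06 for ST3GAL3. This contrast uses the libraries labelled H929 and cannot separate a difference in response from the difference between those labels.

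Under DMSO the line labels differed in ST3GAL6 by less than the threshold for the fold change. JJN3 had 55.2 and 56.2 CPM and the libraries labelled H929 DMSO 57.4 and 79.0 CPM, a log2 difference of -0.29 (standard error 0.111, adjusted p = 0.0264), JJN3 minus H929. Without H929 DMSO replicate 2 the difference was -0.04. Of the 9 genes 5 were higher in JJN3 and the other 4 were not called, beside 30.7% of all 16122 genes tested that were higher. These were ST3GAL6-AS1 (log2 difference 1.75, standard error 0.188), ST3GAL3 (1.45, standard error 0.132), ST3GAL1 (1.30, standard error 0.069), ST6GAL1 (1.26, standard error 0.080) and ST3GAL4 (0.68, standard error 0.127). ST8SIA4, ST3GAL2 and ST3GAL5 were not called, at 0.29 (95% interval 0.14 to 0.43), 0.19 (-0.03 to 0.40) and 0.11 (-0.06 to 0.27).

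Under THZ1 the comparison was with the libraries labelled H929 THZ1, which differed from those labelled H929 DMSO in light chain and FGFR3 as well. Of the 9 genes 1, ST3GAL1, was higher in JJN3 (log2 difference 0.56, standard error 0.068), beside 32.3% of all genes tested, and 7 were lower, beside 31.6%. The 7 ran from -0.80 (standard error 0.078) for ST6GAL1 to -3.72 (standard error 0.113) for ST3GAL6, which leaves JJN3 with 0.0757 of the level in the libraries labelled H929 THZ1. ST3GAL3 was not called (0.07, 95% interval -0.18 to 0.32). The call for ST3GAL1 was lost with total counts in place of TMM (0.44).

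To compare genes with one another, CPM was divided by the kilobases of annotated exon of each gene. In JJN3 with DMSO the order of the levels was ST3GAL1 at 35.9 ± 1.42 CPM per kb (SD, n = 2), ST3GAL6 at 8.84 ± 0.11, ST8SIA4 at 5.46 ± 0.11, ST6GAL1 at 5.15 ± 0.12, ST3GAL4 at 4.70 ± 0.49, ST3GAL2 at 4.55 ± 0.26, ST3GAL5 at 1.69 ± 0.12, ST3GAL3 at 0.856 ± 0.0069 and ST3GAL6-AS1 at 0.745 ± 0.018. Among neighbours in this order the values of the libraries overlapped for ST3GAL4 and ST3GAL2. In JJN3 with THZ1, ST3GAL1 (27.8 ± 0.13) and ST3GAL6 (14.5 ± 0.57) stayed on top, ST3GAL5 (3.49 ± 0.053) passed ST3GAL4 (2.99 ± 0.57) and ST6GAL1 (2.90 ± 0.039), and the neighbours ST8SIA4 and ST3GAL2 as well as ST3GAL4 and ST6GAL1 overlapped.

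In the libraries labelled H929 DMSO the first places were again ST3GAL1 (14.6 ± 0.72 CPM per kb) and ST3GAL6 (10.8 ± 2.42), with no overlap between any neighbours of the 9. Under the H929 THZ1 label ST3GAL6 stood first at 192 ± 4.82 CPM per kb, followed by ST3GAL1 at 18.9 ± 0.49 and ST8SIA4 at 18.4 ± 0.31, which overlapped, as did ST3GAL4 and ST3GAL2. The last place was held by ST3GAL3 (0.552 ± 0.056). Exon lengths came from a later annotation than the one counted on, and the places of several genes depend on the length used. With the canonical transcript, ST3GAL3, which has many annotated exons, held rank 5 in JJN3 with DMSO. There ST3GAL4 held rank 3 and ST8SIA4 rank 6. Under the H929 THZ1 label ST3GAL6 stayed first, followed by ST3GAL4 at rank 2, ST3GAL5 at rank 3 and ST3GAL1 at rank 4.

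The α2,3 enzymes were the largest share of sialyltransferase mRNA in JJN3. Over the 20 sialyltransferase genes, and per kilobase of exon, the 6 ST3GAL genes held 58.4% ± 0.08 (SD, n = 2) with DMSO and 68.3% ± 0.47 with THZ1. Within this, ST3GAL6 went from 9.14% ± 0.32 to 18.5% ± 0.16 while ST3GAL1 held 37.1% ± 0.63 and 35.4% ± 1.24. The α2,6 share on galactose, nearly all ST6GAL1, was 5.33% ± 0.0021 with DMSO and 3.70% ± 0.16 with THZ1, and the α2,8 share was 28.5% ± 0.0071 and 22.1% ± 0.34. The THZ1 and DMSO libraries did not overlap in any of these shares. The size of the shares depends on the length used: with the length of the canonical transcript the α2,6 share on galactose was 8.13% with DMSO and 5.34% with THZ1, and the α2,8 share 19.3% and 14.3%, each with the same direction. Shares of mRNA are not shares of enzyme activity, and a share can move because other genes of the total moved.

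Under the H929 DMSO label the ST6GALNAC enzymes, which add α2,6 sialic acid to GalNAc, held 63.9% ± 1.96 and the ST3GAL genes 29.4% ± 1.74. Nearly all of the former was ST6GALNAC4 (59.9% ± 2.02). Under the H929 THZ1 label the ST3GAL genes held 77.3% ± 0.47, of which ST3GAL6 alone was 61.0% ± 0.93 of the total, and the ST6GALNAC enzymes 13.7% ± 0.54. The α2,8 share was 4.38% ± 0.10 and 7.45% ± 0.10, or 3.25% and 4.66% with the canonical length.

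**Figure D4:**
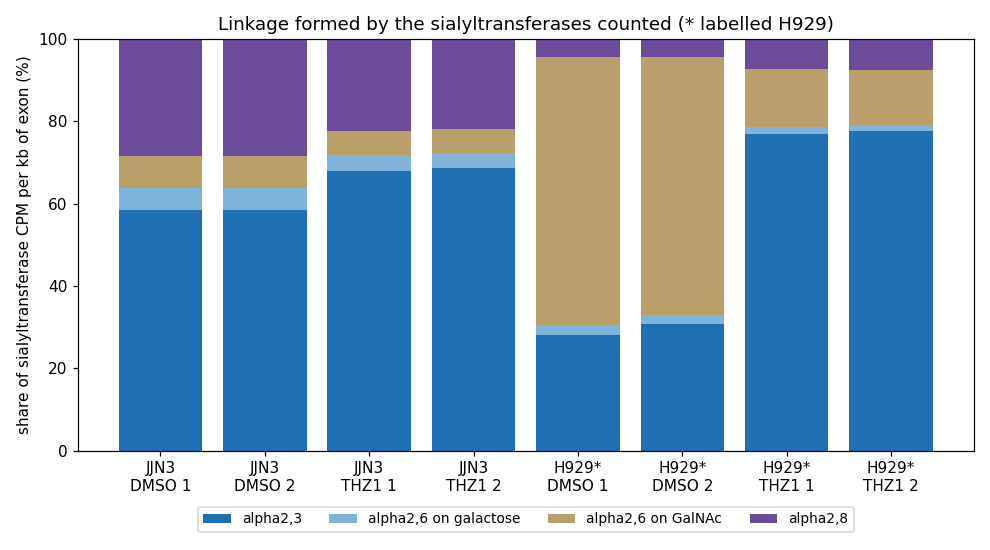
Share of the summed CPM per kb of exon of 20 sialyltransferase genes (vertical axis, percent) held by the genes of each linkage, one bar a library. The ST3GAL genes hold 58.4% ± 0.08 in JJN3 with DMSO and 68.3% ± 0.47 with THZ1 (SD, n = 2), and the asterisk marks the libraries labelled H929.

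The counts for the lists of other sialylation genes in JJN3 stand beside the 20.6% of all genes tested that were higher and the 21.3% that were lower. Of the 12 other sialyltransferases, 5 were tested, and 3 fell. The counts of ST8SIA2, the second polysialyltransferase, were 2553 and 2456 in the vehicle libraries and 1211 and 1362 after treatment (log2 fold change -0.77, standard error 0.078, adjusted p = 1.26e-05). Per kilobase of exon ST8SIA2 held 22.8% ± 0.28 (SD, n = 2) of the sialyltransferase total in JJN3 with DMSO (14.9% with the canonical length) and ST8SIA4 5.64% ± 0.25, while in the libraries labelled H929 DMSO they held 0.322% ± 0.13 and 3.85% ± 0.027. ST6GALNAC4, which adds a second sialic acid to sialylated core 1, fell too (-0.73, adjusted p = 0.000633), as did ST6GALNAC6 (-0.68, adjusted p = 0.0294), named after its values were seen. Of 9 genes for the supply and turnover of sialic acid, 8 were tested and 1 fell, NANP, the phosphatase of the last step to free sialic acid (-0.58, adjusted p = 0.000416). The list of 5 sialidase genes includes CTSA, which is not a sialidase but the protein that stabilises NEU1. From this list 3 were tested and did not pass, with log2 fold changes of 0.15 for NEU1, 0.03 for NEU3 and 0.24 for CTSA.

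Among 23 genes that build the acceptor glycans, 20 were tested, and 5 rose and 4 fell, a share in each direction near that of all genes tested. The largest rises were those of B4GALT1 (log2 fold change 1.55, standard error 0.114), which adds the galactose that sialyltransferases cap, and UGCG (0.89, standard error 0.120), which makes the glucosylceramide upstream of GM3. The largest falls were those of C1GALT1C1 (-0.86, standard error 0.122), the chaperone of the core 1 synthase, and GCNT1 (-0.75, standard error 0.131), which makes core 2 O-glycans. Of 16 fucosylation genes 9 were tested, with FUT11 (0.60) and FUT9 (0.53) among the 2 higher and FPGT (-0.78) and SLC35C1 (-0.54), the GDP-fucose transporter, among the 3 lower. FUT7, which finishes sialyl Lewis X in leukocytes, had at most 4 counts in any library.

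Of 10 selectins and carriers of selectin ligands or polysialic acid, 8 were tested in JJN3, and 4 rose and 2 fell, beside 20.6% and 21.3% of all genes tested. CD44 was among the genes that rose (log2 fold change 1.29, standard error 0.086), and the genes that fell were NCAM1 (-1.75, standard error 0.460) and SELPLG (-0.74, standard error 0.083), which encodes PSGL-1, the main P-selectin ligand. For CD44 the counts were 2213 and 2210 in the vehicle libraries and 4763 and 4675 after treatment. NCAM1 was low, at 27 and 62 counts in the vehicle libraries and 13 and 10 in the treated ones. Of the 12 sialic acid-binding receptors 1 was tested, SIGLEC9, which fell from 58 and 67 counts to 22 and 19 (-1.41, standard error 0.290). Over the 7 lists, medians ran from -1.41 for the receptor list, a single gene, to 0.46 for the selectins and carriers, beside -0.0004 over all genes tested.

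**Figure D5:**
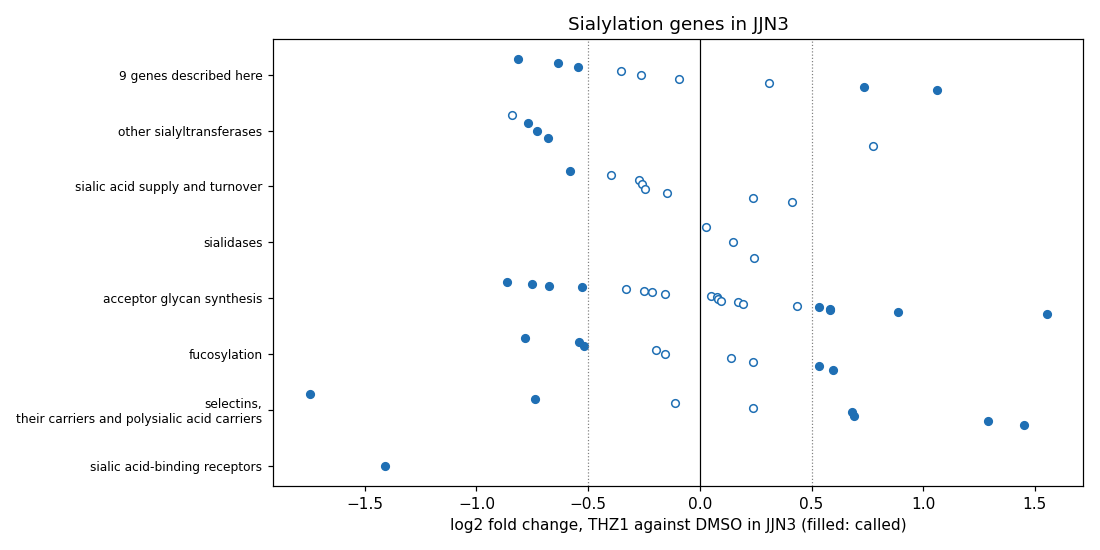
Log2 fold change of THZ1 against DMSO in JJN3 (horizontal axis) for the tested genes of the 9 described here and of 7 lists of sialylation genes, one point a gene. Filled points passed both thresholds, and rises and falls stand side by side in the acceptor list, with 5 higher and 4 lower.

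In the comparison of the H929 labels, the counts for the same lists stand beside 33.1% of all 14863 genes tested that were higher and 32.6% that were lower. Of the other sialyltransferases 3 of 7 tested were higher under the THZ1 label and 4 lower. ST8SIA2 was the higher one with the most counts, at 29 and 51 against 538 and 573 counts (log2 fold change 3.75, standard error 0.169), and ST6GALNAC3 had 0 and 1 against 20 and 21 counts. ST8SIA1, the GD3 synthase, was counted 66 and 63 times in the DMSO-labelled libraries and 0 times in both THZ1-labelled ones, and ST6GAL2 68 and 71 against 1 and 0. For sialic acid supply 5 of 9 were higher, with RENBP (5.50) and GNE (1.69), the enzyme that starts the pathway, in front, and 2 were lower, NPL (-3.13) and NANP (-1.32). In the sialidase list NEU1 (0.64) and its stabiliser CTSA (0.95) were higher and NEU3 was lower, at 0.499 of the level under the DMSO label.

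The acceptor list had 9 of 21 higher under the H929 THZ1 label, led by B4GALT6 (5.49) and B4GALT3 (2.22). B4GALT6 was low, at means of 0.245 CPM under the DMSO label and 11.3 CPM under the THZ1 label. The 6 lower held MGAT4B (-2.05) next to GCNT2, which had 124 and 138 against 2 and 2 counts. Fucosylation had 3 of 11 higher, SLC35C1 (1.25) and FUT4, with 0 and 3 against 173 and 176 counts, among them, and 5 lower, TSTA3 (-2.24) and FUT1, with 12 and 20 against 0 counts, among them. Of the selectins and carriers 6 of 8 were higher and 1, NRP2 (-5.08), was lower. NCAM1, the main carrier of polysialic acid, was counted 1 and 59 times in the DMSO-labelled libraries against 3246 and 3292 times, and like CD44 belongs to the genes near 0 in DMSO replicate 1. CD33 was higher (3.26), and SIGLEC9 had 121 and 119 counts against 0 and 1.

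The genes whose pattern over the 8 libraries was most like that of ST3GAL6 were sought among 11195 genes by the root mean square difference of log2 CPM centred on each gene's mean. The 5 closest were RNF122 (0.211), EIF2AK3 (0.286), IFNLR1 (0.300), DAPK1 (0.312) and TMEM184B (0.343). EIF2AK3 encodes PERK, a stress kinase of the endoplasmic reticulum. Its counts were 299 to 555 in JJN3, 459 and 648 under the H929 DMSO label, and 10932 and 10861 under the H929 THZ1 label. RNF122 had 153 and 189, then 4002 and 3830, and 147 to 212 counts in JJN3. All 5 shared the high level under the H929 THZ1 label, and the 8 points share the libraries and the difference between the H929 labels. By Pearson correlation instead, 2 of the 5 were the same, RNF122 and TMEM184B.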

How the data were processed

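The 8 libraries were grouped by the cell line and treatment in the labels. The authors aligned single-end reads to hg19 with STAR 2.5.2a, keeping reads with a single place in the genome, and deposited raw, unnormalized counts that featureCounts gave for Ensembl genes. Whether counting used the strand is not given in the sources used here. The tables of the authors' DESeq2 1.12.4 comparisons were deposited with a mean normalized signal, a log2 fold change, a standard error, a test statistic (a score) and raw and adjusted p-values for each gene. Only the gene symbols of the JJN3 table were used from them.

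Counts were tested with edgeR 4.0.16 in R 4.3.3 (TMM, filterByExpr, quasi-likelihood test, Benjamini-Hochberg over all genes tested). Within a line the 4 libraries were fitted, and the other comparisons used all 8. Genes were called at an adjusted p under 0.05 and a log2 fold change beyond 0.5. Intervals are at 95%, from the standard error and the normal distribution, so with 2 libraries a group they are likely too narrow. The tests were tried on simulated counts. DESeq2 1.42.0 and other scalings, filters, limits and subsets of libraries were alternatives.

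Levels are TMM-scaled CPM over the 8 libraries. Exon lengths and gene spans came from GENCODE for GRCh37, the same build as hg19. Promoter sequences came from RefSeq (GRCh38.p14) and guides and primers from the study's supplementary tables. Likeness to ST3GAL6 used a prior count of 2 and genes averaging 1 or more on the log2 CPM scale.

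The genes and the 7 sialylation lists, of 87 symbols, all found, were chosen with earlier results of these data known. From each list the 2 largest rises and the 2 largest falls among genes called were named, for each line label, except for a gene that is not reported here. At most 3 counts in a group were given as counts, with no fold.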

Additional observations from a re-analysis of the deposited data

Results flagged for a closer look

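The difference between THZ1 and DMSO was not the same under the 2 line labels for any of the 9 genes, by edgeR's test of the difference itself over 8 libraries, with Benjamini-Hochberg adjustment. As JJN3 minus the libraries labelled H929, on the log2 scale, it was -0.74 for ST3GAL1, -1.67 for ST3GAL2, -1.38 for ST3GAL3, -2.69 for ST3GAL4, -1.30 for ST3GAL5, -3.43 for ST3GAL6, -3.50 for ST3GAL6-AS1, -2.05 for ST6GAL1 and -2.32 for ST8SIA4. For ST6GAL1, ST3GAL3 and ST3GAL4 the sign of the log2 fold change was opposite under the 2 labels and past the thresholds in both. The libraries labelled H929 DMSO and H929 THZ1 differed in light chain and FGFR3 as well, so a difference in response cannot be told apart from the difference between those libraries.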

How the results depend on the processing

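Of 666 values of the 9 genes under alternatives, 647 kept their direction and their side of the thresholds, 11 were no longer past them, 5 came past them and 3 changed sign. The 3 were ST3GAL2 in JJN3, between -0.34 and 0.12 with 1 library left out (0.12 without THZ1 replicate 1), and ST3GAL3 between the lines under THZ1, -0.046 with total counts and between -0.047 and 0.16 with 1 library left out (-0.047 without H929 THZ1 replicate 2). None of these 3 was called. A log2 fold change beyond 1 left 1006 genes lower and 1397 higher in JJN3, with 0 and 1 of the 9 among them. It left 3146 genes lower under the H929 labels. Of the 9, 0 were then higher in JJN3 with THZ1 than in the libraries labelled H929 THZ1. With the adjusted p alone, 5 of the 9 were lower in JJN3, and 1 was lower in JJN3 than under the H929 label with DMSO. With total counts, 0 of the 9 were higher in JJN3 with THZ1 than in the libraries labelled H929 THZ1. For THZ1 against DMSO in JJN3, total counts moved the median of all genes to -0.10, which lowers every value there by that much. ST3GAL6 was still at 0.63 or above in that comparison.

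Leaving out 1 library at a time gave 2663 to 3115 genes lower and 2445 to 2989 higher in JJN3. Of the 9 genes 2 to 3 were then lower and 2 higher. The replicate numbers gave no sign of pairing, with correlations of deviations of 0.00961 in JJN3 and -0.0115 under the H929 labels. Values near 0 cannot show that the samples were unpaired, and the H929 labels differed in more than treatment. With the number as a block 3013 genes were lower in JJN3 and 3 of the 9 among them, and the block changed no call of the 9. ST3GAL6 ranked 3 in JJN3 with DMSO with no length, and 1 in the libraries labelled H929 DMSO with the canonical transcript length, an alternative chosen after seeing the data. With Pearson correlation 2 of the 5 genes most like ST3GAL6 were shared. With 2 libraries a group, a difference in ST3GAL2 or ST3GAL6-AS1 in JJN3 inside the intervals given was not detectable, and those intervals are likely too narrow.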
